A study of Mus musculus with 6 samples.

Results

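The genes described here encode the subunits of the mitochondrial respiratory chain and ATP synthase, with a small group of complex I assembly factors. They were taken by symbol from the deposited count table: protein-coding rows whose symbols begin with Ndufa, Ndufb, Ndufc, Ndufs, Ndufv, Uqcr, Cox4 to Cox8, Atp5 or mt-, and Sdha to Sdhd. This gave 109 genes of the 55487 in the table, 96 in the nucleus and 13 on the mitochondrial genome. The rule uses symbols and biotype alone, though it was set with earlier results of these data known. The cells were lymphocytes sorted live from the epithelium of the small intestine of wild-type (WT) C57BL/6J mice, all positive for CD3ε, a chain of the T cell receptor complex, and for CD45, the leukocyte phosphatase encoded by Ptprc. One group was B220+CD3ε+CD45+ and is labelled X cells, and the other was B220-CD3ε+CD45+ and is labelled T cells; B220 is a splice form of the CD45 protein, named for its use as a marker of B cells. Each group had 3 libraries of total RNA, and the labels give neither age nor sex nor whether a different mouse stands behind each library, so p-values measure the spread between libraries, which may be partly technical.

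The inner mitochondrial membrane holds the respiratory chain. Complex I takes electrons from NADH and complex II from succinate, ubiquinone and cytochrome c carry them on, complex III stands between these carriers, and complex IV passes the electrons to oxygen. Complexes I, III and IV pump protons, and ATP synthase, called complex V, lets the protons back and makes ATP. Most subunits are encoded in the nucleus and imported, while a few core subunits are encoded and translated inside the mitochondrion, so each complex except complex II is built from both genomes. Intraepithelial lymphocytes are resident T cells of the gut lining that are held in a partly activated state, and oxidative phosphorylation is a main source of ATP in resting and memory T cells.

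Total gene counts were 11810859, 39591312 and 14173322 in the B220+ libraries and 18773165, 17753655 and 11320363 in the B220− libraries. T cell markers fixed for the label check summed to 8463 to 9230 CPM (read counts divided by the scaled library size, with the usual CPM factor) in B220+ and 8184 to 8453 CPM in B220− libraries, and Cd3e, Trac and Trdc were abundant in both groups. Of these 11 markers, Trdc and Trgc1 were called higher in B220+ cells by edgeR (log2 fold changes 0.35 and 0.76). Cd247 and Cd2 were called lower (−0.51 and −1.73). B cell markers summed to 30.4 to 34.4 CPM in B220+ and 24.4 to 32.3 CPM in B220− libraries, nearly all of it from Cd79b, while Ms4a1 had 3 counts in all. Plasma cell markers summed to 237 to 396 CPM in B220+ and 155 to 524 CPM in B220− libraries, mostly Ighm and Igkc, and of these markers Sdc1 was called lower in B220+ cells (adjusted p = 0.0203 by edgeR). Myeloid markers summed to 385 to 538 CPM in B220+ and 254 to 325 CPM in B220− libraries, most of it from Itgax, which encodes CD11c and lies beside Itgad, while Lyz2 averaged 0.303 CPM in B220+ cells, against 2.06 CPM in B220− cells. Epithelial markers, of which Cdh1 gave most of the signal, summed to 323 to 367 CPM in B220+ and 293 to 359 CPM in B220− libraries. Of 14722 genes tested over the whole table with edgeR's quasi-likelihood test, 1639 (11.1%) passed an adjusted p of 0.05, 821 (5.58%) higher and 818 (5.56%) lower in B220+ cells.

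Several mitochondrially encoded genes have a near-identical copy in the nuclear genome, and the sequences are shown because they bear on how far the counts of these genes can be trusted. A block of 4663 bases on chromosome 1 (24611535 to 24616197, minus strand, mm10) holds 7 pseudogene models that follow the mitochondrial gene order. The start of the first one, Gm29216, was set against the matching stretch of mt-Co1, the catalytic subunit of complex IV, at mitochondrial positions 6381 to 6440, with capitals at the 6 bases that differ.
mt-Co1: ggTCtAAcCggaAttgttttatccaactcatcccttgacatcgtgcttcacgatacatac
Gm29216: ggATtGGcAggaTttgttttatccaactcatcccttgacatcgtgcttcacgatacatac
Over the 492 bases of Gm29216 no other base differed, which gives 98.78% identity, and this copy covers 31.84% of mt-Co1. The start of mt-Co2 (mitochondrial positions 7013 to 7072) and the start of its copy Gm28661 (chromosome 1, 24615506 to 24615565, minus strand) were identical, so no letter is in capitals.
mt-Co2: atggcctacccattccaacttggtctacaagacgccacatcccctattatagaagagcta
Gm28661: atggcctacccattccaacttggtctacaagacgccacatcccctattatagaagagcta
The identity was 100% over all 681 bases of Gm28661, over the 678 bases of the mt-Atp6 copy Gm10925, over the 783 bases of the mt-Co3 copy Gm28437 and over the 294 bases of the mt-Nd4l copy Gm10222. The mt-Nd3 copy Gm28438 differed at 1 of 345 bases, and the mt-Nd4 copy Gm28439 was identical over 876 bases, 63.57% of that gene.

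Of the 109 genes, 100 had enough counts to be tested, 89 nuclear and 11 mitochondrial. Their RNA levels in B220+ and B220− cells were close, and 1 gene passed the test, Cox6a2, higher in B220+ cells. None passed as lower, and DESeq2 also called Cox6a2 alone. Before adjustment 7 of the 100 had p under 0.05, all of them nuclear, against 22.4% of all genes tested. Leaving out Cox6a2, log2 fold changes (B220+ over B220−) ran between −0.35 for Ndufb1-ps and 0.29 for Ndufaf7. The median was −0.03 for the 89 nuclear genes and −0.08 for the 11 mitochondrial genes, beside −0.01 for all genes tested. The 95% interval of the fold change lay inside 1.5-fold in either direction for 95 of the 100 genes, 85 nuclear and 10 mitochondrial, against 60.4% of all genes tested. The standard errors were also smaller, with a median of 0.0923 on the log2 scale for these genes and 0.120 for all genes tested. In 3 genes every B220+ library was above every B220− library and in 9 every one was below, so 12 of the 100 had groups that did not overlap. Of all genes tested 14.1% lay apart in the higher and 13.9% in the lower direction, 28.1% in all. In RNA from pooled cells, fewer cells of a type and less RNA per cell cannot be told apart, and this holds for every level given here.

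**Figure D1:**
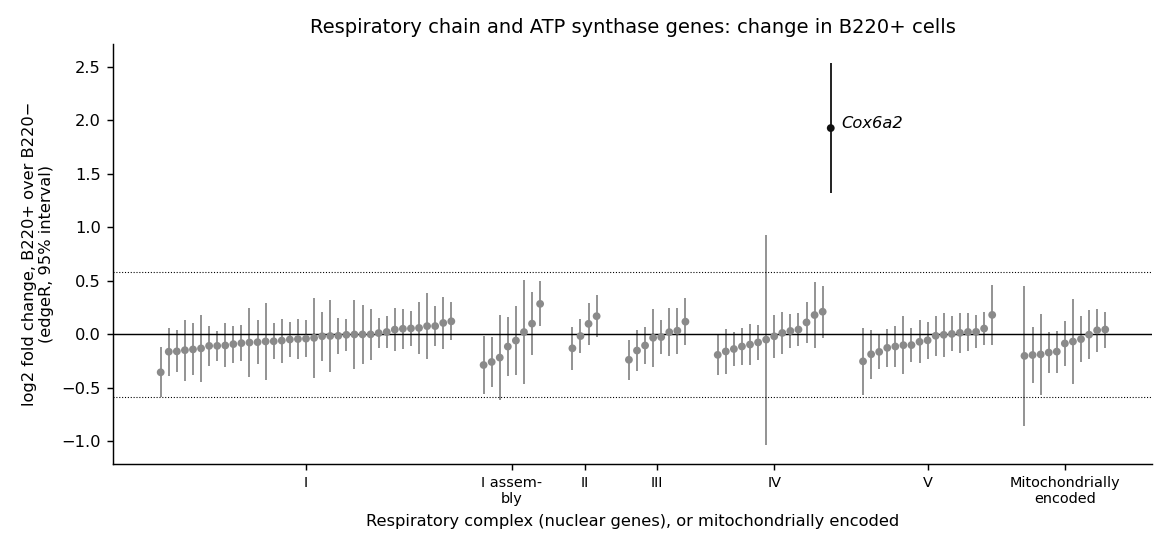
Log2 fold change of each of the 100 tested genes, B220+ over B220−, ordered by size within each complex. Points are edgeR estimates, lines are 95% intervals, and the dotted lines mark 1.5-fold in either direction. Cox6a2 in complex IV stands at 1.93, and the other genes lie between −0.35 and 0.29.

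Complex I, the NADH dehydrogenase, was covered by 37 nuclear genes, all of which were tested and none called. Their median log2 fold change was −0.04, with 13 above and 24 below 0. The highest level per length was that of Ndufb11, an accessory subunit of the membrane arm, at 91.6 CPM per kb of exon in B220+ and 92.2 in B220− cells. Ndufv1, the subunit that binds NADH, had 68.9, 71.2 and 75.6 CPM in B220+ libraries, against 71.0, 71.4 and 73.9 CPM in B220− libraries. Ndufs1, an iron-sulfur subunit that takes the electrons on, had 77.1, 76.5 and 79.0 CPM in B220+ libraries, against 85.0, 82.3 and 83.0 CPM in B220− libraries. All B220+ libraries were below all B220− libraries for Ndufs1, but the difference did not pass the test (log2 fold change −0.11, SE 0.0657, adjusted p = 0.392 by edgeR).

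The largest difference in complex I was that of Ndufb1-ps, which is annotated as protein-coding and carries the name of the small membrane-arm subunit Ndufb1. It had 23.3, 22.4 and 24.6 CPM in B220+ libraries, against 34.0, 26.4 and 29.1 CPM in B220− libraries, with no overlap. The log2 fold change was −0.35 (SE 0.107) and missed the threshold with edgeR (adjusted p = 0.0528), while the fit with replicate number as a block gave 0.0152. A gene on the opposite strand, Cpsf2, shares 147 exonic bases with it and has 251% of its counts. Cpsf2 lay in the same direction, averaging 59.5 CPM in B220+ cells, against 73.4 CPM in B220− cells (log2 fold change −0.31, adjusted p = 0.0552, or 0.00416 with the block). The part of Cpsf2 reads in the Ndufb1-ps value was not tested.

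Assembly of complex I needs factors that do not stay in the finished enzyme. All 8 such genes were tested and none was called, with a median log2 fold change of −0.09, and they were the least abundant of the classes, with a median of 6.69 CPM per kb in B220+ and 6.28 in B220− cells. Ndufaf8 was the highest of them at 14.3 CPM per kb in B220+ and 15.3 in B220− cells. Ndufaf7, a methyltransferase that acts during complex I assembly, had 21.3, 22.9 and 22.3 CPM in B220+ libraries, against 18.3, 18.4 and 18 CPM in B220− libraries. Every B220+ library was above every B220− library, but the log2 fold change, 0.29 (SE 0.0966), missed the threshold (adjusted p = 0.0827 by edgeR, 0.0573 with the block). Ndufaf3 and Ndufaf4, which act together early in assembly, lay the other way. Ndufaf3 had 15.7, 14.4 and 16.4 CPM in B220+ libraries, against 19.0, 18.6 and 17.5 CPM in B220− libraries. Ndufaf4 had 11.3, 12.8 and 13.9 CPM in B220+ libraries, against 16.1, 14.8 and 15.6 CPM in B220− libraries. Neither group pair overlapped, and neither passed the test (log2 fold changes −0.26 and −0.29, adjusted p = 0.180 and 0.189 by edgeR).

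Complex II, succinate dehydrogenase, is made of 4 nuclear subunits and also belongs to the citric acid cycle. The flavoprotein Sdha, which oxidises succinate, had 232, 203 and 234 CPM in B220+ libraries and 238, 214 and 224 CPM in B220− libraries. The iron-sulfur subunit Sdhb had 59.3, 49.3 and 57.0 CPM in B220+ libraries and 66.0, 55.2 and 59.0 CPM in B220− libraries. The membrane anchor Sdhc had 80.5, 65.1 and 75.2 CPM in B220+ libraries and 74.1, 66.9 and 64.1 CPM in B220− libraries. The other anchor, Sdhd, had 63.4, 59.5 and 71.2 CPM in B220+ libraries and 60.04, 60.3 and 51.3 CPM in B220− libraries. The groups overlapped for all 4 genes. Log2 fold changes were −0.01 for Sdha, −0.13 for Sdhb, 0.10 for Sdhc and 0.17 for Sdhd, none past the test (the lowest adjusted p was 0.295, for Sdhd, by edgeR), and all 4 intervals lay inside 1.5-fold.

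Complex III, the cytochrome bc1 complex, had 8 nuclear genes, all tested and none called, with a median log2 fold change of −0.03. Uqcrh, the hinge protein that helps cytochrome c dock, was the most abundant per length, at 85.6 CPM per kb in B220+ and 101 in B220− cells, and had the largest fold change. It had 110, 99.5 and 109 CPM in B220+ libraries, against 141, 114 and 119 CPM in B220− libraries. The groups did not overlap, the log2 fold change was −0.24 (SE 0.0857), and it did not pass the test (adjusted p = 0.107 by edgeR), though it did with the replicate block (adjusted p = 0.0126). The Rieske iron-sulfur protein Uqcrfs1 had 81.2, 66.7 and 73.1 CPM in B220+ libraries and 89.6, 75.7 and 79.0 CPM in B220− libraries, with overlap. The core protein Uqcrc1 had 141, 125 and 129 CPM in B220+ libraries and 142, 131 and 128 CPM in B220− libraries.

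Complex IV, cytochrome c oxidase, is the complex in which most subunits with tissue-specific forms are found, and 21 nuclear genes matched, 15 of them tested. Ndufa4 and Ndufa4l2 were placed here, since the protein first assigned to complex I sits in complex IV, and Cox7a2l was kept here by its symbol; it acts in joining complexes III and IV, and C57BL/6 mice carry a shortened form. The forms known from most tissues were abundant. Cox8a had 289 CPM per kb in B220+ and 280 in B220− cells, the highest of all the nuclear genes. Within complex IV, Cox6a1 had 139 CPM per kb in B220+ and 136 in B220− cells, Cox7a2l 133 and 143, Cox4i1 123 and 131, and Cox6b1 94.9 and 105, each in the same order of groups. None of these differed past the test, and their log2 fold changes ran between −0.16 (Cox6b1) and 0.05 (Cox8a). Cox7c, a small structural subunit, had 75.1, 63.8 and 67.3 CPM in B220+ libraries and 87.0, 73.6 and 73.8 CPM in B220− libraries. These values overlapped, and the log2 fold change of −0.19 (SE 0.0890) passed only with the replicate block (adjusted p = 0.0480, against 0.229 without it, by edgeR). With the block 3 of the 100 genes were thus called lower, Ndufb1-ps, Uqcrh and Cox7c, beside 8.6% of all genes tested. Cox7a2, the form of subunit 7a in most tissues, had 59.0, 52.5 and 65.4 CPM in B220+ libraries and 57.8, 43.7 and 50.5 CPM in B220− libraries, and did not pass (log2 fold change 0.21, adjusted p = 0.299, or 0.0524 with the block).

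Among the restricted forms, most were at or near 0. The testis forms Cox8c and Cox7b2 had no count in any library, and Cox4i2, known from lung, and Cox8b, known from heart and skeletal muscle, had 1 count each over all 6 libraries. Ndufa4l2, known as a hypoxia-induced gene, had 12 counts and Cox6b2, another testis form, had 67 counts in total. The muscle form Cox7a1 had 0.508, 0.553 and 0.989 CPM in B220+ libraries and 0.807, 0.566 and 0.698 CPM in B220− libraries. That is 75 counts in all, and its interval ran between −1.03 and 0.93 on the log2 scale, so at this depth the counts leave its direction undetermined.

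Cox6a2, the form of subunit 6a known from heart and skeletal muscle, was the exception. It had 22.2, 23.7 and 22.9 CPM in B220+ libraries, against 3.55, 8.54 and 6.02 CPM in B220− libraries. The groups were far apart, with the lowest B220+ library well above the highest B220− library. The log2 fold change was 1.93 (SE 0.262, 3.81-fold, 95% interval 2.50 to 5.80-fold, adjusted p = 0.00252 by edgeR), and it passed with the replicate block, with DESeq2 and without any 1 library. Per length it reached 33.7 CPM per kb in B220+ and 8.88 in B220− cells, below Cox6a1 in both groups.

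The gene lies at chromosome 7, 128205435 to 128206387, on the minus strand (mm10), wholly within Itgad, a plus-strand gene at 128154376 to 128223816 that encodes the integrin chain CD11d, and 70 of its exonic bases overlap exons of Itgad. Itgad had 397, 418 and 385 CPM in B220+ libraries, against 90.6, 160 and 128 CPM in B220− libraries. Its log2 fold change was 1.67 (SE 0.210, adjusted p = 0.00661 by edgeR). Cox6a2 counts as a percentage of Itgad counts were 5.59, 5.66 and 5.94 in B220+ libraries and 3.92, 5.35 and 4.71 in B220− libraries. The ratio was higher in all B220+ libraries, and the exact two-sided permutation p was 0.1, the smallest that 3 against 3 libraries can give. Of the other 3 minus-strand models inside Itgad, 2 were also called higher in B220+ cells. Gm39091 differed by a log2 fold change of 1.75 (adjusted p = 3.30e-04) and 4931431B13Rik by 1.63 (adjusted p = 0.00264), and Gm44850 by 1.36, which missed the threshold (adjusted p = 0.0514 by edgeR). Relative to Itgad the exact permutation p was 0.7 for Gm39091, 0.6 for 4931431B13Rik and 0.5 for Gm44850. The ratio to Itgad was not among the planned tests. With 3 against 3 libraries its p cannot reach 0.05, so it does not decide whether Cox6a2 differs beyond Itgad. The kit marks strand, but whether the counting used strand is not given in the sources used here, so reads of Cox6a2 and of unspliced or opposite-strand Itgad RNA cannot be told apart in these counts. Of 7 skeletal muscle markers, Ckm was higher in B220+ cells, with a mean of 11.3 CPM there and 4.84 CPM in B220− cells (adjusted p = 0.00426 by edgeR). Mylpf (6.18 CPM in B220+ and 6.57 in B220− cells) and Tnnt3 (2.04 and 3.47 in the same order) did not pass the test. Acta1, Tnnc2 and Tnni2 had 4, 11 and 5 counts and Myl1 57 counts over all libraries. The 7 markers summed to 18.2 to 21.9 CPM in B220+ and 14 to 16.4 CPM in B220− libraries, and their part in the Cox6a2 value was not tested.

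**Figure D2:**
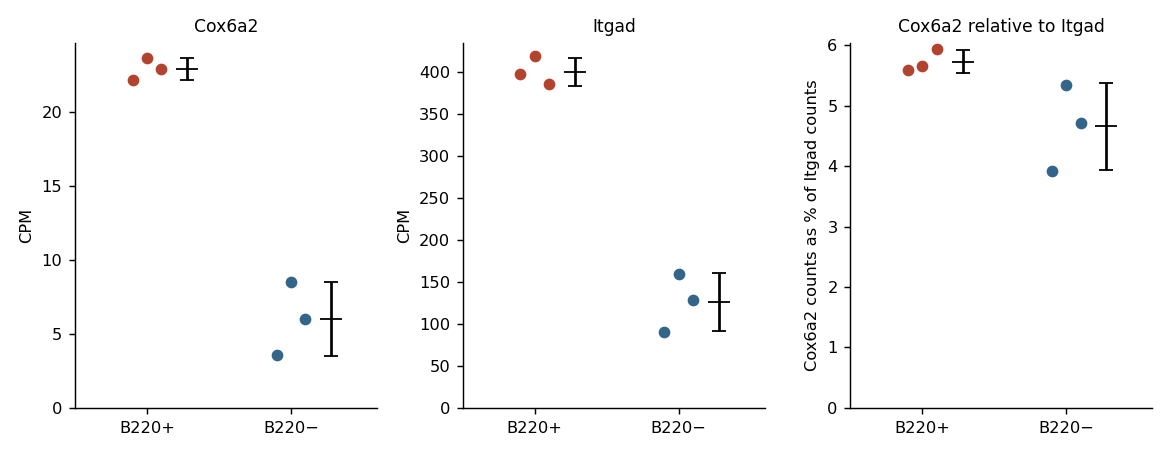
Cox6a2 (left) and Itgad (middle) in CPM, and Cox6a2 counts as a percentage of Itgad counts (right), with 1 point per library and the mean ± SD of 3 libraries beside each group, B220+ left of B220−. Both genes are higher in every B220+ library, while the percentages lie between 5.59 and 5.94 in B220+ and between 3.92 and 5.35 in B220− libraries.

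ATP synthase, complex V, had 18 genes, 17 of them tested and none called; the remaining one is a second model named Atp5o with no count. The median log2 fold change was −0.05, with 6 above and 11 below 0, and all 17 intervals lay inside 1.5-fold. The catalytic head was the most abundant part. Its α subunit Atp5a1 had 530, 508 and 561 CPM in B220+ libraries and 538, 495 and 506 CPM in B220− libraries (170 CPM per kb in B220+ and 164 in B220− cells). Its β subunit Atp5b, which carries the catalytic sites, had 546, 505 and 569 CPM in B220+ libraries and 614, 553 and 568 CPM in B220− libraries. The γ subunit Atp5c1, the shaft that turns inside the head, had 144, 136 and 148 CPM in B220+ libraries, against 173, 155 and 149 CPM in B220− libraries. All B220+ libraries were below all B220− libraries for Atp5c1, but the log2 fold change of −0.16 (SE 0.0740) did not pass (adjusted p = 0.215 by edgeR). The ring of c subunits is encoded by a set of genes that give the same mature protein. Of these Atp5g3 had 57.3 CPM per kb in B220+ and 56.2 in B220− cells, Atp5g2 had 38.5 and 41.8, and Atp5g1 had 5.09 and 5.36, in the same order of groups. In both groups Atp5g1 was thus the least abundant of them per length, and the log2 fold changes were 0.02, −0.12 and −0.07 in that order. Length was that of all annotated exons, so the order rests partly on the gene models. Atp5g1 transcripts held 4881 distinct stretches of 50 bases, against 1622 for Atp5g2 and 2224 for Atp5g3. Of the Atp5g2 stretches, 38.35% also occur in another gene. The largest difference in complex V was that of Atp5k, the e subunit of the membrane part, with 21.3, 14.3 and 19.1 CPM in B220+ libraries and 21.6, 19.5 and 23.2 CPM in B220− libraries (log2 fold change −0.25, SE 0.144, adjusted p = 0.350 by edgeR).

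**Figure D3:**
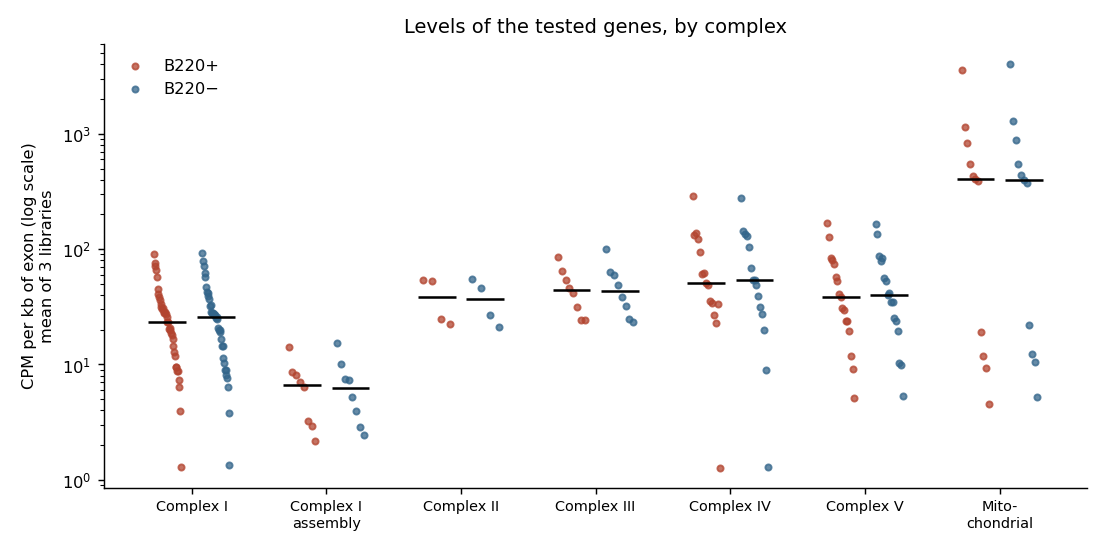
Level of each tested gene, as the mean of 3 libraries in CPM per kb of exon on a log scale, by complex and group, B220+ left of B220−. Black lines are medians, which are 51.1 in B220+ and 53.7 in B220− cells for complex IV and 6.69 in B220+ and 6.28 in B220− cells for the complex I assembly factors.

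The mitochondrial genome encodes 13 of the proteins, 7 in complex I, cytochrome b in complex III, 3 in complex IV and 2 in ATP synthase, all cut from long shared transcripts. None of the 11 tested was called by edgeR or by DESeq2, and 0 had an unadjusted p under 0.05. mt-Co1 had 5474, 5500 and 5695 CPM in B220+ libraries, against 6863, 5911 and 5851 CPM in B220− libraries. All B220+ libraries were below all B220− libraries, and the log2 fold change of −0.16 (SE 0.0907) did not pass (adjusted p = 0.341). This 1 gene took 54.43% to 60.04% of the mitochondrial counts of a library. That share includes the genes with near-identical nuclear copies, and may depend on how reads with several matches were treated, which is not given. mt-Cytb had 1187, 1283 and 1482 CPM in B220+ libraries and 1478, 1431 and 1535 CPM in B220− libraries (log2 fold change −0.17, adjusted p = 0.293). For the complex I genes mt-Nd1, mt-Nd2, mt-Nd4, mt-Nd5 and mt-Nd6 the groups overlapped, and the log2 fold changes ran between −0.08 (mt-Nd1) and 0.05 (mt-Nd5). Per length, mt-Co1 stood at 3596 CPM per kb in B220+ and 4018 in B220− cells and mt-Cytb at 1151 in B220+ and 1295 in B220− cells, while the 5 complex I genes lay between 374 and 888 in either group. mt-Nd5 and mt-Nd6 lie on opposite strands and share 14 bases.

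The other 6 mitochondrial genes were far lower. Per length mt-Co2 had 19.3 CPM per kb in B220+ and 21.9 in B220− cells, mt-Atp6 had 11.9 and 12.4, mt-Co3 9.29 and 10.5, mt-Nd3 4.57 and 5.26 and mt-Nd4l 1.19 and 1.18, in the same order of groups. mt-Atp8 had 7 counts over all 6 libraries. Of the 50-base words in the transcript, the share also found in another annotated gene was 100% for mt-Co2, 99.86% for mt-Co3, 99.53% for mt-Atp6, 98.79% for mt-Nd4l and 97.99% for mt-Nd3. It was 62.23% for mt-Nd4, 51.14% for mt-Co1, 8.19% for mt-Nd2, 7.61% for mt-Nd5 and 0 for mt-Nd1, mt-Nd6, mt-Cytb and mt-Atp8. Only annotated transcripts were searched, so a share of 0 does not speak to copies outside annotated genes. For mt-Atp8, which lies between mt-Co2 and mt-Atp6, the matching stretch of the chromosome 1 block (24614651 to 24614885) falls between Gm10925 and Gm28661 and was not compared. The copies themselves also had counts. Gm28661 had 1182 counts over all libraries and mt-Co2 had 1551, Gm10925 had 1900 and mt-Atp6 957, Gm28437 had 804 and mt-Co3 861, Gm28438 had 57 and mt-Nd3 196, and Gm10222 had 30 and mt-Nd4l 33. How reads with several matches were treated is not given in the sources used here, and the part of the copies in the low values was not tested. For the 4 low genes that were tested, log2 fold changes ran between −0.20 (mt-Nd3) and −0.07 (mt-Atp6), with none past the test. mt-Co2, with 13.5, 12.1 and 14 CPM in B220+ libraries, against 14.6, 15.3 and 15 CPM in B220− libraries, was the 1 of them whose groups did not overlap (log2 fold change −0.19, SE 0.119, adjusted p = 0.393 by edgeR).

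**Figure D4:**
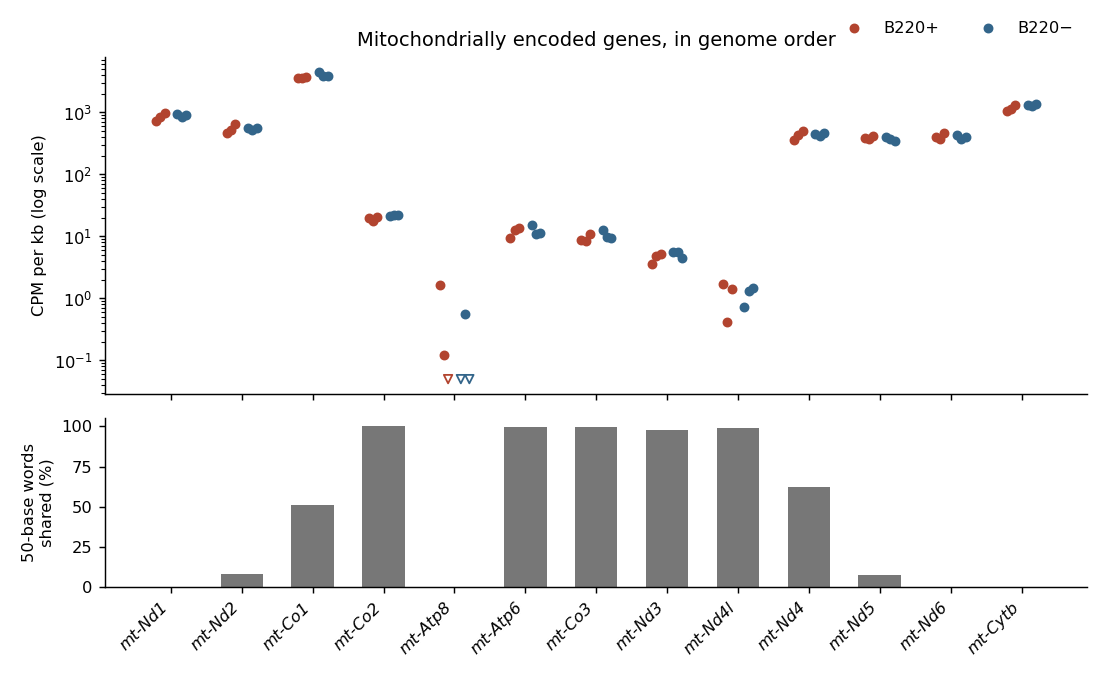
Upper panel, level of each mitochondrially encoded gene in CPM per kb on a log scale, with 1 point per library, B220+ left of B220−, in genome order; open triangles at the lower edge are libraries with no count. Lower panel, percentage of the 50-base words of each gene found in another annotated gene, which is over 97% for mt-Co2, mt-Atp6, mt-Co3, mt-Nd3 and mt-Nd4l.

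Summed per library, the 96 nuclear genes took 6377, 5769 and 6470 CPM in B220+ libraries and 6779, 6111 and 6131 CPM in B220− libraries. Their mean was 6205 ± 381 CPM for B220+ libraries and 6340 ± 380 CPM for B220− libraries (SD, n = 3 each), and the groups overlapped. The 13 mitochondrial genes took 9269, 9598 and 10461 CPM in B220+ libraries and 11430, 10158 and 10314 CPM in B220− libraries, with a mean of 9776 ± 616 CPM for B220+ libraries and 10634 ± 694 CPM for B220− libraries (SD, n = 3 each). These also overlapped, and 1 B220− library, replicate 1, was the highest for both sums. The 5 mitochondrial genes with over 100 counts and under 10% of shared words summed to 3265, 3478 and 4053 CPM in B220+ libraries and 3916, 3635 and 3799 CPM in B220− libraries. The ratio of mitochondrial to nuclear counts was 1.45, 1.66 and 1.62 in B220+ libraries and 1.69, 1.66 and 1.68 in B220− libraries. It counts all 13 mitochondrial genes, and may also depend on how reads with several matches were treated. B220+ replicate 2, the deepest library, had the lowest nuclear sum, and B220+ replicate 1 had the lowest ratio.

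**Figure D5:**
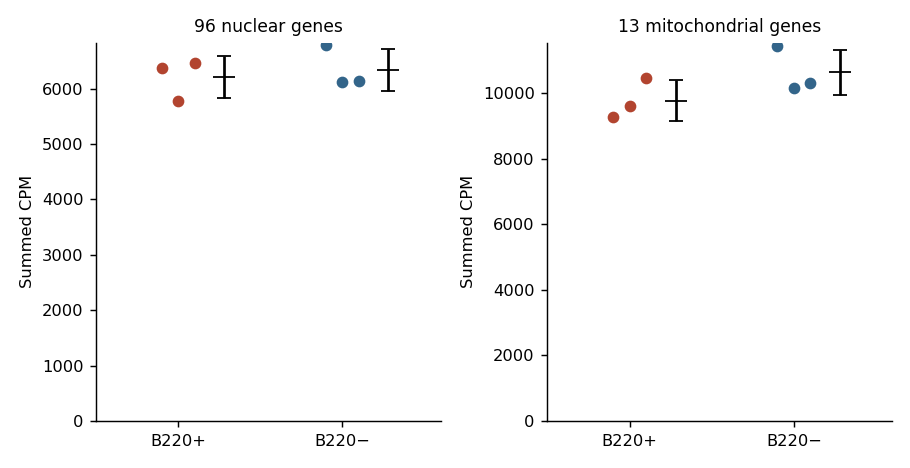
Summed CPM of the 96 nuclear and 13 mitochondrial genes, with 1 point per library and the mean ± SD of 3 libraries beside each group, B220+ left of B220−. The groups overlap in both panels, with means of 6205 and 6340 CPM for the nuclear genes and 9776 and 10634 CPM for the mitochondrial genes in B220+ and B220− cells.

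Nuclear respiratory genes are known targets of the factors NRF1, GABP (an ETS factor) and YY1, and the promoter sequences are shown because such motifs are a feature of the genes that the choice by symbol did not use. RefSeq promoter windows (GRCm38.p6, 250 bases before to 50 after the start) were matched by Entrez gene ID, or else by symbol. This gave windows for 77 of the 96 nuclear genes, 82 in all since some genes have more than 1. They were searched on both strands. A gene was counted where any of its windows held the motif. The NRF1 motif, the palindrome that is the first run of capitals in the Cox6a1 window, was found in 7 of the 77 genes (9.09%), in 2.49% of tested protein-coding genes with a window and in 1.07% of all genes with one. The YY1 motif AAGATGGCG was found in 8 (10.39%), 3.79% and 1.64% of these genes in the same order, and the ETS motif CCGGAAG in 19 (24.68%), 21.54% and 9.93%. CCAAT was found in 34 (44.16%), 43.3% and 41.06%, and TATAAA in 8 (10.39%), 8.38% and 15.67%. No window of these genes held overlapping motifs. The genes with the NRF1 motif were Ndufa11, Uqcrc1, Ndufaf5, Ndufaf4, Cox6a1, Atp5k and Atp5g2. A match is a description of the letters and not a bound site. The window of Cox6a1 (chr5:115348909-115349208, minus strand), the widely expressed counterpart of Cox6a2, holds the NRF1 motif, CCAAT and the ETS motif (as its reverse complement), in capitals.
Cox6a1: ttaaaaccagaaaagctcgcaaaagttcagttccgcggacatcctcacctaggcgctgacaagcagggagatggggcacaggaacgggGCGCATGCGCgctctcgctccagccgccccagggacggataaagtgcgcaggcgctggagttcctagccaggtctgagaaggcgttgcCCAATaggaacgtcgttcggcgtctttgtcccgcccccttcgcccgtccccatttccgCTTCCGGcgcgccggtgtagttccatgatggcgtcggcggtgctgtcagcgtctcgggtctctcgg
The window of Atp5j, the F6 subunit of the ATP synthase stalk (chr16:84834927-84835226, minus strand), holds the YY1 and ETS motifs in capitals and lies at the start of Gabpa, which encodes GABP alpha and runs the other way.
Atp5j: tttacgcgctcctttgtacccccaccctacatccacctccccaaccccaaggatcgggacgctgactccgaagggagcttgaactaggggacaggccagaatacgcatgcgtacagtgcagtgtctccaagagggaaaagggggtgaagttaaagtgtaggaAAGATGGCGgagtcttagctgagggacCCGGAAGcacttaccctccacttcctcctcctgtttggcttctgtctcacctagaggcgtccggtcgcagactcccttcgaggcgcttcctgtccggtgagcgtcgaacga
Atp5j had 78.2, 66.0 and 79.7 CPM in B220+ libraries and 82.9, 72.8 and 67.7 CPM in B220− libraries, and Gabpa had 94.1, 87.9 and 89.6 CPM in B220+ and 99.4, 92.4 and 85.3 CPM in B220− libraries. The models share 397 exonic bases on opposite strands. Neither gene differed past the test. The log2 fold change was −0.00 for Atp5j and −0.03 for Gabpa. Over all classes, 29 of the 100 tested genes, 27 of them nuclear, overlap in span a gene on the opposite strand with over 10% of their counts. The share over all genes tested was not computed. The overlap in exons differed widely, from 0 bases for Ndufaf2 with Smim15 to 616 for Ndufb5 with Mrpl47. The part of the opposite gene in their values was not tested.

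Genes that assemble, feed or control the respiratory chain were followed in 7 lists. Of 41 tested assembly factors outside the gene families above, 1 was called lower and none higher, with a median log2 fold change of −0.01. The called gene was Dmac1, a factor of complex I assembly, with 17.0, 14.8 and 16.1 CPM in B220+ libraries, against 22.5, 22.9 and 18.9 CPM in B220− libraries (log2 fold change −0.44, SE 0.115, adjusted p = 0.0265 by edgeR). Its call was lost in 4 of the 6 fits that leave out a library, with an adjusted p of up to 0.140 without B220+ replicate 2. Of 21 tested genes of electron carriers and coenzyme Q, none was called by edgeR, with a median of −0.03 and 3 with an unadjusted p under 0.05, while DESeq2 called Coq8b and Gpd2 higher (adjusted p = 0.00787 and 2.29e-05). With the replicate block 3 were called higher, beside 8.85% of all genes tested. Of these Gpd2, the mitochondrial glycerol-3-phosphate dehydrogenase that feeds electrons to ubiquinone, had 132, 143 and 110 CPM in B220+ libraries, against 64.1, 98.2 and 79.7 CPM in B220− libraries (log2 fold change 0.67, adjusted p = 0.0587, or 0.00884 with the block). The others were Coq8b (0.55, adjusted p = 0.0525, or 0.00133 with the block) and Coq9 (0.25, adjusted p = 0.0689, or 0.0315 with the block), both of coenzyme Q synthesis. Cytochrome c, encoded by Cycs, had 36.8, 35.8 and 39.1 CPM in B220+ libraries and 41.1, 36.2 and 36.7 CPM in B220− libraries.

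Of 18 genes that maintain or transcribe mitochondrial DNA, 1 was called lower, with a median of −0.05. This was Polg, the catalytic subunit of the mitochondrial DNA polymerase, with 32.0, 34.9 and 32.7 CPM in B220+ libraries, against 51.2, 46.1 and 51.3 CPM in B220− libraries. The groups were well apart, with a log2 fold change of −0.57 (SE 0.0798, adjusted p = 4.91e-04 by edgeR), and the call held in each fit that leaves out a library (adjusted p of at most 0.00538). The transcription factor Tfam had 44.4, 39.8 and 46.9 CPM in B220+ libraries and 43.1, 43.5 and 47.9 CPM in B220− libraries. Of 11 tested regulators of respiratory genes, 1 was called lower, with a median of −0.03. Hif1a, the oxygen-regulated factor that favours glycolysis, had 85.9, 94.3 and 85.0 CPM in B220+ libraries, against 133, 109 and 109 CPM in B220− libraries (log2 fold change −0.40, SE 0.0878, adjusted p = 0.00986 by edgeR, or 0.0555 without B220+ replicate 3). Nrf1 had 62.1, 49.8 and 53.2 CPM in B220+ libraries and 63.3, 57.7 and 54.0 CPM in B220− libraries, Yy1 averaged 224 CPM in B220+ cells, against 221 CPM in B220− cells, and the coactivator Ppargc1a had 7 counts in all.

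None of 20 tested genes of pyruvate oxidation and the citric acid cycle was called by edgeR, with or without the replicate block, or by DESeq2, 1 had an unadjusted p under 0.05, and the median log2 fold change was −0.01. All 20 intervals lay inside 1.5-fold. Of 77 tested genes of the mitochondrial ribosome 1 was called lower, Mrps5, with 31.3, 33.7 and 34.8 CPM in B220+ libraries, against 40.5, 42.3 and 43.0 CPM in B220− libraries (log2 fold change −0.33, SE 0.0792, adjusted p = 0.0166 by edgeR). Its call was lost in 3 of the 6 fits that leave out a library (adjusted p of up to 0.0682, without B220− replicate 3). Of 10 antioxidant, uncoupling and ADP/ATP exchange genes 1 was called higher. Ucp3, an uncoupling protein best known from skeletal muscle, had 0.847, 1.36 and 1.62 CPM in B220+ libraries, against 0.161, 0.113 and 0.349 CPM in B220− libraries, 96 counts in all (log2 fold change 2.71, SE 0.534, adjusted p = 0.00468 by edgeR). Ucp2, its neighbour on chromosome 7 and the form known from lymphocytes, had 746, 711 and 766 CPM in B220+ libraries, against 802, 767 and 841 CPM in B220− libraries, which did not pass the test (log2 fold change −0.12, adjusted p = 0.375). The lists thus held 0 or 1 call each, beside 11.1% of all genes tested, and in the lists of 10 and 11 genes 1 call is close to that share.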

How the data were processed

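The deposited table gives unnormalized, whole-number counts of reads for each gene, with 1 column for each of the 6 libraries. The labels' protocols name a stranded kit for total RNA (NEBNext Ultra II Directional). The submitters' processing notes list HISAT2 2.1.0 and featureCounts 1.6.3, the mm10 build, and, for trimming, quality control and file handling, Trimmomatic 0.38, FastQC 0.11.7 and SAMtools 1.9. Their options, the annotation release, whether counting used strand and what was done with reads of several matches are not given in the sources used.

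Counts were tested with edgeR 4.0.16 in R 4.3.3 (trimmed-mean scaling, filterByExpr with a minimum count of 10 and a minimum total of 15, robust quasi-likelihood fit, quasi-likelihood F test on group alone), with Benjamini-Hochberg adjustment over all 14722 genes tested and calls under 0.05. Fold changes are B220+ over B220−, CPM uses the scaled library sizes, and levels between genes are CPM per kb of GENCODE M21 exon length. The 95% intervals come from the fitted coefficients and their F statistics. The script was tested on simulated data. Alternatives were DESeq2 1.42.0, its size factors, no filter, a replicate block and each library left out. Sequence sharing is the percentage of 50-base words of a gene's M21 transcripts that also occur in another gene.

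The members and gene lists were chosen with earlier results of these data known. Named genes were, by rule, those called with or without the block, the most abundant and most different member of each class, all mitochondrial genes, the tissue-restricted forms with their counterparts, the Sdh genes and the called genes of each list; others were named after their values were seen. The replicate numbers were taken to pair the libraries because same-numbered libraries deviated together, with correlations of 0.295, 0.246 and 0.272 across genes. For different numbers the correlations were −0.203 to −0.0675. Deviations were taken from the mean of each group and so cancel within it. Positive values for same numbers thus push the others below, and the negative values are no separate evidence. No label states this pairing, and the column names carry other numbers. The correlations come from the same counts that the block was fitted to, so adjusted p-values with the block may be favoured by this choice. No p-value was computed for summed levels.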

Additional observations from a re-analysis of the deposited data

How the results depend on the processing

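With the replicate block 2569 genes of the whole table were called in place of 1639, and between 969 and 1789 when 1 library was left out, the lowest without B220+ replicate 2 (1029 without B220− replicate 3). The number of nuclear respiratory genes called was 1 with edgeR, DESeq2 and DESeq2's size factors, 3 with no filter (Cox6a2, Uqcrh and Ndufb1-ps), 4 with the replicate block, which adds Cox7c, and between 1 and 2 with 1 library left out, the second being Ndufb1-ps without B220− replicate 2. Cox6a2 was called in each of these fits. No mitochondrial gene was called in any of them. Among the 41 genes named by rule and tested the block changed no further call. Among the other named genes, chosen as markers or after their values were seen, the block's added calls included Gpd2, Coq8b, Coq9, Cpsf2, Itgax and Gm44850. The nuclear median log2 fold change lay between −0.07 and 0.02 with 1 library left out and turned positive without B220+ replicate 2 or B220− replicate 1. The mitochondrial median lay between −0.18 and 0.01 and turned positive without B220+ replicate 1. The log2 ratio of the summed mitochondrial genes was −0.12, or −0.08 over the 5 genes with little shared sequence, a setting chosen after seeing the data, and that of the nuclear genes was −0.03, or −0.04 without Cox6a2, also chosen after seeing the data. Dmac1, Mrps5 and Hif1a lost their calls in 4, 3 and 1 of the fits that leave out a library. The cause of these changes was not tested. Depth limits the low genes: Cox7a1, with 75 counts, had the widest interval of the 100 tested respiratory genes, and intervals cover 3 libraries per group.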
